A study of Mus musculus with 2 samples.

Results

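The genes described here are 10 genes of cholesterol efflux and of the liver X receptors (LXRs): the exporters Abca1 and Abcg1, the receptors Nr1h2 and Nr1h3, and the LXR target genes Apoe, Pltp, Mylip, Lpcat3, Srebf1 and Scd1. They were taken by gene symbol from a table of 16463 genes, and each of the 10 symbols had 1 row. RNA came from resting bone marrow-derived macrophages, which are macrophages grown from marrow precursors over 5 days in medium with 10% serum and 10% supernatant of L929 fibroblasts as the source of macrophage colony-stimulating factor. Both genotypes are labelled C57BL/6J and carry Lyz2-Cre, a recombinase made in myeloid cells from the lysozyme M locus. The control (WT) has Lyz2-Cre alone. The other line (TKO) is labelled mir-106a~363-/-, mir-106b~25-/- and mir-17~92flox/flox, so the first pair of microRNA clusters is missing from every cell of the animal and the floxed cluster is removed only where Cre acts. Neither genotype was stimulated, and each is represented by 1 library, the WT one summing to 10877917 estimated counts and the TKO one to 10656465. No difference below has a replicate check, no test was possible, and intervals cover counting error only.

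LXR alpha (Nr1h3) and LXR beta (Nr1h2) are nuclear receptors that bind oxysterols and desmosterol, the signals of cholesterol excess, and sit on DNA with a retinoid X receptor (RXR) partner. In macrophages that take up lipoproteins and dead cells they switch on exporters that pass cholesterol to extracellular acceptors, an E3 ligase that limits lipoprotein uptake, and enzymes that make and remodel fatty acids. The microRNAs of the 3 clusters lower messenger RNAs by pairing through their seed with sites in the 3′ untranslated region (UTR).

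The main difference among the 10 genes was between the exporters: Abca1 was lower and Abcg1 higher in the TKO library, while each of the other 8 genes differed between the libraries by at most 1.24-fold. A gene was called higher or lower when the log2 ratio of TKO over WT was at least 1 in size, its 95% interval excluded 0 and 1 library had at least 20 counts. All 10 genes reached the count minimum, with 135 to 56250 counts in WT, and 0 were called, against 4.73% of all 11525 measured genes (2.43% higher and 2.3% lower). The median log2 ratio of the 10 genes was 0.0070, with 5 above 0 and 5 below, and that of all measured genes was 0.0043. Under the other scalings the median of the 10 genes lay between -0.012 and -0.030. That of all measured genes moved with it, between -0.015 and -0.032, so the sign of both depends on the scaling.

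**Figure D1:**
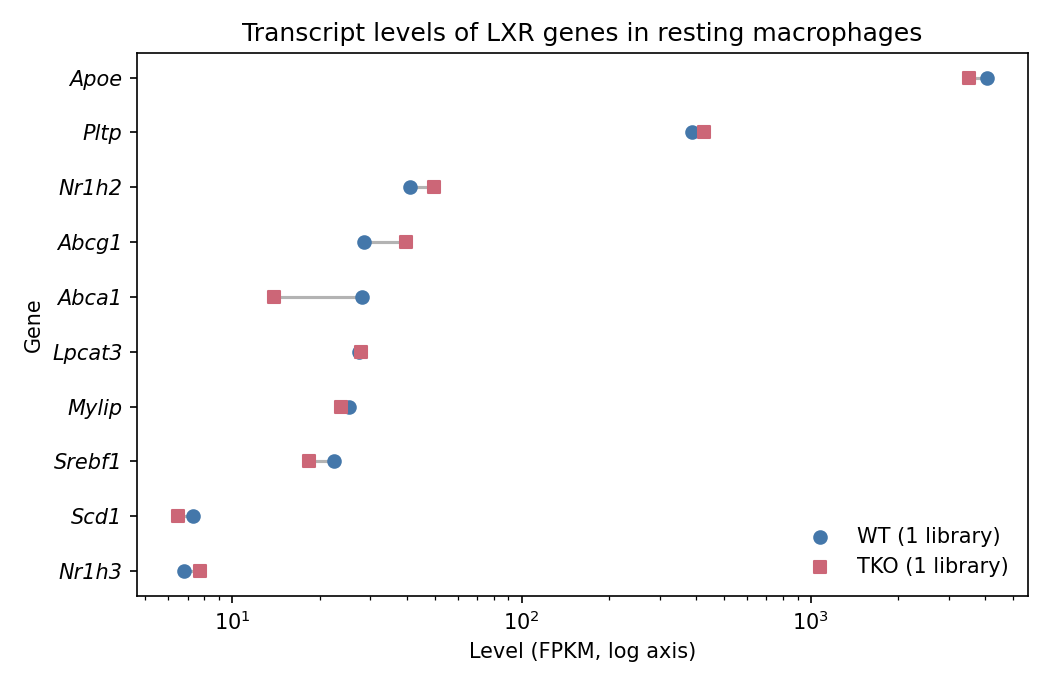
Level of each of the 10 genes in the WT library (circles) and the TKO library (squares), in FPKM on a log axis, ordered by the WT level, with 1 library per genotype. Abca1 sits next to Abcg1 in WT, at 28.05 and 28.51 FPKM, and apart from it in TKO, at 13.91 and 39.73 FPKM.

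Abca1 (Entrez 11303, chromosome 4, 53030787 to 53159895, minus strand, GRCm38) encodes the transporter that loads cholesterol and phospholipid onto lipid-poor apolipoprotein A-I. Its level was 28.05 FPKM in WT and 13.91 in TKO, from 3172 and 1542 counts. This is 1.97-fold lower in TKO (95% counting interval 1.85 to 2.09), just short of the 2-fold threshold. Whether Abca1 is called therefore turns on the scaling: with library totals the log2 ratio was -1.01 and with the FPKM ratio, which is also the log2 ratio in the authors' deposited table, -1.01, and under each of these Abca1 was the 1 gene of the 10 called lower, where 2.53% and 2.54% of all genes were. At a 1.5-fold threshold Abca1 was again the only one of the 10 called, and 5.52% of all genes were called lower. By level Abca1 was ranked 2796 of all genes in WT and 4963 in TKO.

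Abcg1 (Entrez 11307, chromosome 17, 31057675 to 31117988, plus strand) encodes a half-transporter that moves cholesterol to mature high-density lipoprotein. Its level was 28.51 FPKM in WT and 39.73 in TKO, from 1824 and 2493 counts. This is 1.43-fold higher in TKO (1.35 to 1.52), and it was not called at a 1.5-fold threshold. The balance of both exporters can be compared inside each library, where the scaling between libraries drops out. Abcg1 over Abca1 was 1.02 in FPKM in WT and 2.86 in TKO, and in counts this balance was 2.81-fold higher in TKO (2.58 to 3.07).

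**Figure D2:**
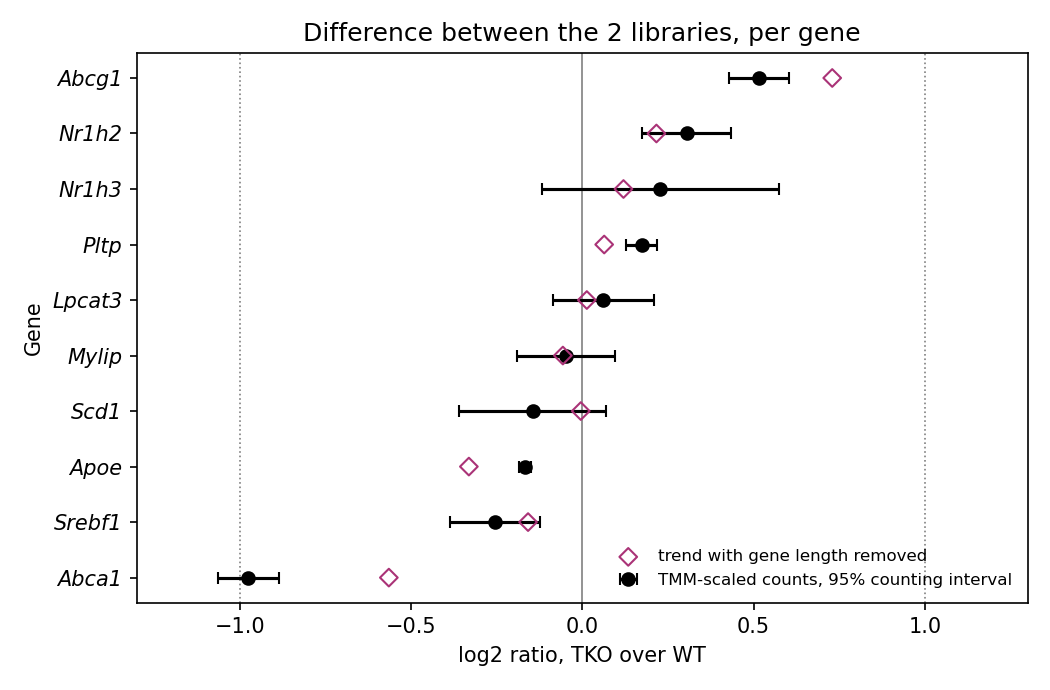
Log2 ratio of TKO over WT for each of the 10 genes, with filled circles and bars for TMM-scaled counts and their 95% counting interval, open diamonds for the ratio after the trend with gene length was removed, and dotted lines at 2-fold. Abca1 at -0.98 and Abcg1 at 0.52 lie farthest from 0, and both stay outermost with the trend removed, at -0.56 and 0.73.

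The 3′ UTR of Abca1 holds sites for a pair of the seed families that the targeted clusters encode, and the sequences are shown because the genotypes differ, by their labels, in these microRNAs. The mature microRNAs below are from RefSeq on GRCm38.p6, written 5′ to 3′ with the seed (bases 2 to 8) in capitals. The miR-17 family shares 1 seed over miR-17, miR-20a, miR-20b, miR-93, miR-106a and miR-106b, and 1 member is shown from each targeted cluster.
mmu-miR-17-5p: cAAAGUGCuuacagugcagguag
mmu-miR-106b-5p: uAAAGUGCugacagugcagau
mmu-miR-106a-5p: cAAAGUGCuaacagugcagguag
mmu-miR-18a-5p: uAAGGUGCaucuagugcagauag
mmu-miR-19b-3p: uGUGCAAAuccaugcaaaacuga
mmu-miR-92a-3p: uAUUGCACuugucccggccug

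Sites complementary to bases 2 to 8 were searched for on the transcript strand of each gene's longest 3′ UTR in GENCODE M21. The letters were GCACTTT for the miR-17 family, GCACCTT for miR-18, TTTGCAC for miR-19 and GTGCAAT for miR-25/92. In the 3156 bases of the Abca1 3′ UTR there were 3. Those of the other exporter and 1 of the 3 sites of Mylip are shown for comparison. The miR-18 and miR-19 sites of Mylip are not printed. Each site shown is given in 29 bases of DNA letters on the transcript strand with the site in capitals.
Abca1, miR-17 family, chr4:53031006-53031012: cctcattccaaGCACTTTatgctgtctgt
Abca1, miR-19 family, chr4:53030976-53030982: atggatctattTTTGCACtggaatatctg
Abca1, miR-19 family, chr4:53033885-53033891: cgaggtcttccTTTGCACtgtgtcaagtg
Abcg1, miR-19 family, chr17:31117630-31117636: ttatctgtgatTTTGCACatgcactctcg
Abcg1, miR-25/92 family, chr17:31117109-31117115: gtctgggcacaGTGCAATcccttctggct
Mylip, miR-25/92 family, chr13:45411710-45411716: gacctcatcggGTGCAATactagctaagt

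The miR-17 site of Abca1 and the nearer of its miR-19 sites are separated by 23 bases close to the end of the UTR, and the miR-17 site is followed by an A, the base that lengthens such a match. Abca1 was the only one of the 10 genes with a miR-17 family site, which 14.9% of 11033 searched genes hold. Sites of the miR-19 family were found in Abca1, Abcg1, Mylip and Scd1 (13.4% of searched genes), of the miR-18 family in Nr1h2, Mylip and Srebf1 (9.32%), and of the miR-25/92 family in Abcg1 and Mylip (7.55%). In all, 6 of the 10 genes held 1 or more of the 4 sites, against 34.0% of searched genes, and Apoe, Pltp, Lpcat3 and Nr1h3 held none, all with 3′ UTRs of 188 to 635 bases. The 3′ UTRs of Abca1, Abcg1 and Scd1 were longer than 85.6%, 89.9% and 88.2% of those searched. Those of Mylip, Srebf1 and Nr1h2 were longer than 58.3%, 37.1% and 17.3%. These shares were not adjusted for UTR length. Of the genes with a site, Abcg1 and Nr1h2 had log2 ratios above 0 and Abca1, Mylip, Scd1 and Srebf1 below 0. A match describes the letters of an annotated UTR; mature microRNAs were not measured, and the UTR in use in these cells is not known from these data.

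The receptor transcripts were both slightly higher in TKO. Nr1h2 (Entrez 22260, chromosome 7, 44549616 to 44553951, minus strand), LXR beta, was at 41.22 FPKM in WT and 49.61 in TKO, from 903 and 1066 counts, a log2 ratio of 0.30 (0.18 to 0.43). Nr1h3 (Entrez 22259, chromosome 2, 91184061 to 91202834, minus strand), LXR alpha, was at 6.81 and 7.74 FPKM, from 135 and 151 counts, and its log2 ratio of 0.23 has an interval that includes 0 (-0.12 to 0.57). LXR beta transcript therefore exceeded LXR alpha transcript 6.05-fold in WT and 6.41-fold in TKO on the FPKM scale. The change of that balance between libraries was 1.05-fold in counts (0.82 to 1.36), an interval that includes no change.

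The secreted lipid carriers were the most abundant of the 10 genes. Apoe (Entrez 11816, chromosome 7, 19696109 to 19699188, minus strand), the apolipoprotein that macrophages release as a cholesterol acceptor, was at 4064.38 FPKM in WT and 3523.56 in TKO and ranked 6 and 8 among all genes. It took 0.517% of all counts in WT (exact 95% interval 0.513 to 0.521) and 0.449% in TKO (0.445 to 0.453), and was 1.12-fold lower in TKO (1.11 to 1.14). The narrow interval comes from 56250 and 47823 counts and says nothing about the spread between cultures. Pltp (Entrez 18830, chromosome 2, 164839518 to 164857711, minus strand), which moves phospholipid between lipoproteins, was at 387.08 and 425.39 FPKM, 1.13-fold higher in TKO (1.09 to 1.16). Its exons overlap those of Ctsa, a lysosomal protease on the other strand, by 495 bases, and Ctsa had 17113 and 21424 counts; no source used here says whether counting used strand, so Pltp's value is uncertain. Apoe over Pltp was 10.5 in WT and 8.28 in TKO on the FPKM scale.

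Mylip and the lipid enzymes differed least. Mylip (Entrez 218203, chromosome 13, 45389742 to 45412022, plus strand), also called IDOL, is an E3 ubiquitin ligase that limits lipoprotein uptake. It was at 25.23 FPKM in WT and 23.79 in TKO, from 822 and 760 counts, with a log2 ratio of -0.048 (-0.19 to 0.096). Lpcat3 (Entrez 14792, chromosome 6, 124663027 to 124704418, plus strand), which puts polyunsaturated fatty acids into phospholipids, was at 27.36 and 27.82 FPKM, with a log2 ratio of 0.062 (-0.087 to 0.21), and shares 334 exon bases with Emg1 on the other strand.

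Srebf1 (Entrez 20787, chromosome 11, 60199089 to 60222581, minus strand) encodes SREBP1, the regulator through which LXRs drive fatty acid synthesis. It was at 22.51 FPKM in WT and 18.37 in TKO, from 1073 and 859 counts, 1.19-fold lower in TKO (1.09 to 1.31). The table gives 1 value per gene, so its alternative first exons are pooled. It shares 109 exon bases with Rai1 on the other strand, which had 333 and 182 counts. Scd1 (Entrez 20249, chromosome 19, 44394455 to 44407879, minus strand), the desaturase that makes oleate, was at 7.33 and 6.46 FPKM, from 390 and 337 counts, with a log2 ratio of -0.15 (-0.36 to 0.069).

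Abca1 and Srebf1, both lower in TKO, also share letters in their promoters and are shown for these matches. Their direction does not set them apart. Apoe was lower too, at -0.17 (-0.19 to -0.15), and Scd1 and Mylip were at -0.15 and -0.048. LXR and RXR bind paired half-sites spaced by 4 bases (DR4, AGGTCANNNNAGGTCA). Both strands of RefSeq promoter windows on GRCm38.p6, from 250 bases before to 50 after each start, were searched with up to 3 mismatches in the 12 fixed letters. Of 13 windows covering 8 of the 10 genes, 1 of Abca1 and 1 of the 3 of Srebf1 had a match, and 21.9% of all 32851 windows had one, so matches were no more frequent in the windows of these genes. Abcg1 and Scd1 had no window and were not searched. The matches, 5′ to 3′ on the plus strand of the genome with half-sites in capitals, differ only in the spacer. The joint pattern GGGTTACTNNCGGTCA, written after these matches were seen, occurred in 3 windows of all 32851, on either strand, and the other one belongs to Fasn, fatty acid synthase, whose 16 letters equal those of Abca1.
Abca1, chr4:53159947-53159962: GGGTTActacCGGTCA
Srebf1, chr11:60210638-60210653: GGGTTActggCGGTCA
Fasn, chr11:120824757-120824772: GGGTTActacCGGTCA

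Relative to the annotated starts these windows lie 67 to 52 bases before Abca1, 182 to 167 before a start of Srebf1 inside the gene, and 225 to 210 before Fasn. The log2 ratios were -0.98 for Abca1, -0.26 for Srebf1 and -0.56 for Fasn. The pattern was written from the matches of the first pair, whose shared direction was known, so these values support nothing about the pattern. Their binding by LXR was not measured.

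Gene length moved with these ratios and is given beside them. Across measured genes, longer genes had lower ratios: the median log2 ratio was 0.22 in the shortest of 10 equal groups (107 to 1178 bases) and -0.32 in the longest (6095.49 bases and over). Abca1, at 10260 bases, is longer than 98.5% of measured genes, and the fitted trend at its length was -0.41, so its log2 ratio with the trend removed was -0.56 (-0.65 to -0.48). In that longest group 4.77% of genes had a ratio at or below that of Abca1. Abcg1, at 5821 bases, is also longer than most genes (88.7%), and with a trend of -0.21 at its length its ratio became 0.73 (0.64 to 0.82) with the trend removed. The exporters' difference in log2 ratio was 1.49 (1.37 to 1.62) as measured and 1.29 with the trend removed. Apoe, a short transcript of 1287.74 bases, went from -0.17 to -0.33, Srebf1 from -0.26 to -0.16, Fasn from -0.56 to -0.16 and Scd1 from -0.15 to -0.0045. Shorter genes above 0 moved towards 0: Pltp from 0.17 to 0.064, Nr1h2 from 0.30 to 0.22, Nr1h3 from 0.23 to 0.12 and Lpcat3 from 0.062 to 0.013. No gene of the 10 changed sign. The part of the length trend in these differences was not tested.

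**Figure D3:**
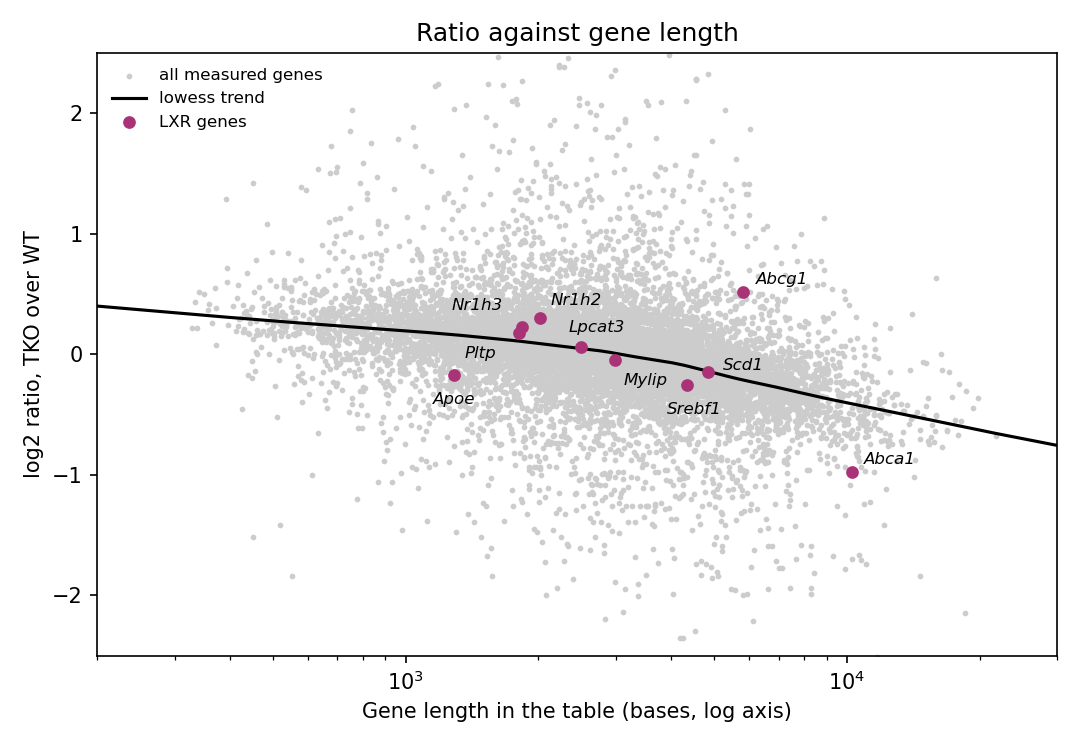
Log2 ratio of TKO over WT against gene length in bases (log axis) for all measured genes (grey), their lowess trend (line) and the 10 genes (coloured and named); 64 genes lie outside the axes. Abca1 lies below the falling trend and Abcg1 above it, while Lpcat3, Mylip and Scd1 lie on or close to it.

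Other LXR target genes were mostly lower in TKO by less than 2-fold. Of 18 listed genes 11 were measured; 0 were called, 9 had ratios below 0 and the median log2 ratio was -0.32 (-0.24 with the length trend removed), against 0.0043 over all genes. Lpl, lipoprotein lipase and the most abundant of the list, was at 380.45 FPKM in WT and 262.74 in TKO, a log2 ratio of -0.50 (-0.53 to -0.46). Scd2, a desaturase related to Scd1, was at 15.51 and 9.55 FPKM (-0.66, -0.82 to -0.51), and Fasn at 9.21 and 6.09 FPKM (-0.56, -0.70 to -0.42). Lpl and Scd2 kept -0.42 and -0.47 with the trend removed. Smpdl3a went the other way, at 220.21 and 281.38 FPKM (0.39, 0.33 to 0.45), or 0.28 with the trend removed. Of the 9 genes below 0, Cd5l and Arl4c have intervals that include 0.

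RXR partners and coregulators had 14 of 15 genes measured, 0 called and 13 below 0. Their median log2 ratio was -0.30, but many of these genes are long and the median was -0.016 with the length trend removed. Rxra, the RXR partner of LXRs, was at 22.41 FPKM in WT and 14.95 in TKO, a log2 ratio of -0.55 (-0.68 to -0.42) that was -0.39 with the trend removed. Tbl1x, a subunit of the NCoR corepressor complex, had 561 and 364 counts (-0.56), or -0.62 with the trend removed. Ncoa2, a coactivator, went from -0.40 to -0.066 in the same way, and Gps2, the most abundant of the list and another corepressor subunit, was at 0.19.

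Genes that make or use LXR ligands differed little. In the oxysterol and desmosterol list 6 of 11 genes were measured, 0 were called and the median log2 ratio was 0.099. Cyp27a1, which makes 27-hydroxycholesterol, had 288 and 366 counts (0.41, 0.18 to 0.64), Ebp, a sterol isomerase, was at 0.36, and Hsd3b7, the most abundant, at 0.069. Ch25h, which makes 25-hydroxycholesterol, had 17 and 12 counts and was under the count minimum. The SREBP2 pathway, the sterol synthesis arm that responds to cholesterol shortage, had 14 of 15 genes measured, 0 called and a median of 0.022, with all 14 within 0.5 of 0; Fdft1, the most abundant, was at 0.26, Fdps at 0.32 and Srebf2, which encodes SREBP2, at -0.29.

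Uptake, storage and transfer genes went both ways. Of 18 genes 17 were measured, 1 was called higher, 0 lower, and the median log2 ratio was -0.046. The call was Soat2, a cholesterol-esterifying enzyme, on 7 and 20 counts (log2 ratio 1.58, 0.28 to 3.07), and Gramd1c, a sterol transfer protein, had 19 and 33 (0.86). Cd36, a receptor for oxidised lipoproteins and fatty acids, was at 139.89 FPKM in WT and 72.74 in TKO, a log2 ratio of -0.91 (-0.97 to -0.84) that was -0.87 with the trend removed. Lipa, the lysosomal acid lipase and most abundant of the list, was at -0.11. Among 15 other ABCA and ABCG transporters with a row, 9 were measured and 1 was called, Abca9, with 287 and 113 counts, 2.43-fold lower in TKO (1.95 to 3.04). Abca3, a phospholipid transporter and the most abundant, was at -0.23, Abca6 at -0.52 and Abcg3 at 0.51, the last pair on under 40 counts in each library. The intervals of that pair include 0 (-1.33 to 0.27 and -0.28 to 1.32). In FPKM Abca6 went the other way, from 0.81 in WT to 0.92 in TKO.

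**Figure D4:**
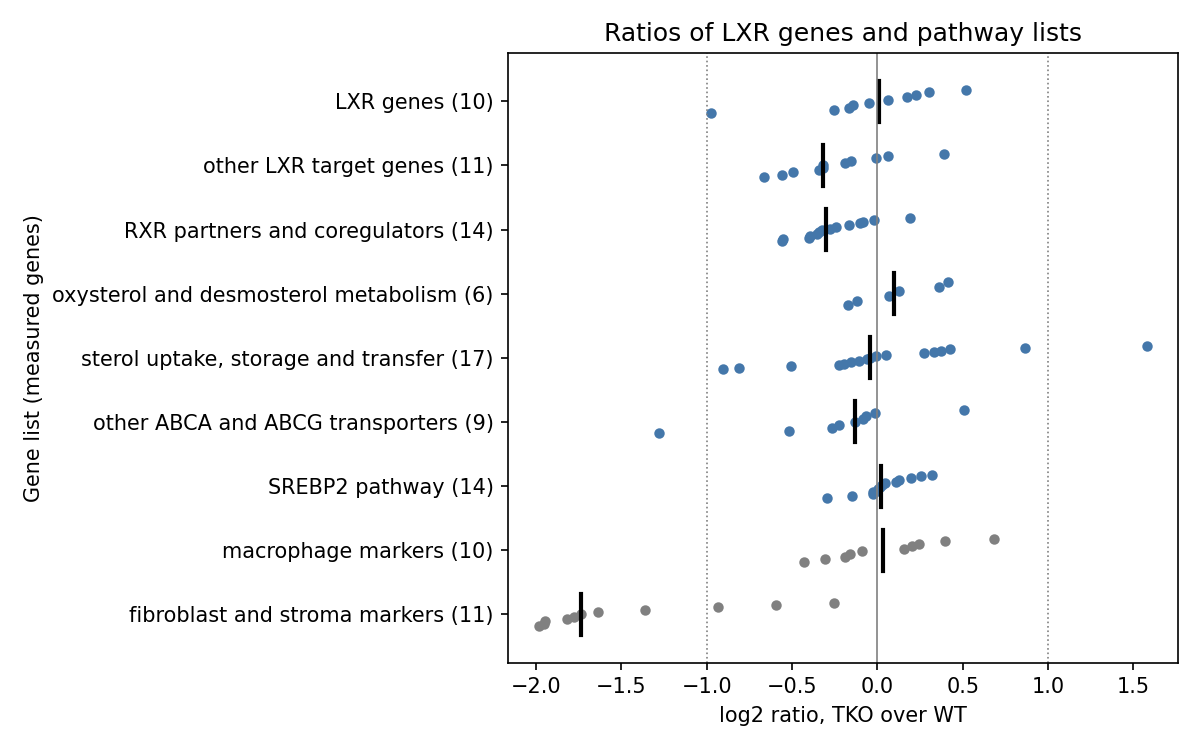
Log2 ratio of TKO over WT for each measured gene (points) of the 10 LXR genes, the pathway lists and macrophage and stromal markers (grey points), with black bars at list medians, dotted lines at 2-fold and the number of measured genes in parentheses. Fibroblast and stroma markers have a median of -1.73, far below that of every pathway list, while SREBP2 pathway genes sit around 0.

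The cultures carried macrophage transcripts at high levels, as labelled: Csf1r was at 974.73 and 892.70 FPKM and Cd68 at 1124.25 and 1440.03, and 0 of 10 macrophage markers were called. Markers of other cells also differed between the libraries, and not all in 1 direction. Of 12 fibroblast and stroma markers 11 were measured, 11 had ratios below 0 and 8 were called lower, their summed level was 109.9 FPKM in WT and 32.4 in TKO, and no marker was at 0 in either library. Of 8 dendritic cell markers 6 were measured and 4 called higher, with summed levels of 99.2 and 121.3 FPKM. Most of that sum was Irf8, which was not called, at 81.13 and 77.79 FPKM. Among the called markers Itgax had 342 and 843 counts and Cd24a 177 and 414. Flt3 had only 10 and 27 counts and Dpp4 8 and 22. Of 7 adipocyte markers only Pparg and Fabp4 had a row, and Adipoq, Plin1, Cidec, Lep and Cfd had none. The summed levels of Pparg and Fabp4 were 85.9 FPKM in WT and 113.8 in TKO, with log2 ratios of -0.19 and 0.53. These values alone do not show that adipocyte RNA was present. Of the neutrophil and monocyte markers 3 were measured and 2 called higher, with summed levels of 47.4 and 56.4 FPKM. Most of that sum was Ccr2, which was not called, at 40.43 and 40.18 FPKM. The called S100a8 had 9 and 21 counts and Plac8 15 and 41. Elane was at 0 counts in WT and 3 in TKO. Fibroblasts also express Abca1, Apoe and Lpl, and the part of these cells in the lower values was not tested. In bulk RNA, fewer cells of a type and less RNA per cell cannot be told apart. The host transcripts of the targeted clusters gave no check of the labels. Mir17hg had 8 and 42 counts, so it was higher in TKO, at a log2 ratio of 2.46 (1.35 to 3.76). The reason was not tested. Mcm7, whose intron holds mir-106b~25, had 1228 and 1083 counts (-0.12, -0.23 to 0.0033).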

How the data were processed

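The deposited table holds expected counts, estimated numbers of reads for each gene (21.3% of WT and 21.1% of TKO values are not whole). The submitters' processing notes list Bowtie2 2.2.5, HISAT2 2.0.4 and RSEM 1.2.12 and the mm10 build without saying what each did; for annotation, filters and strand, the sources used here give nothing. The deposited FPKM values carry that name per the file headers and are scaled for length and depth. The authors' log2 ratio is TKO over WT of these FPKM values. The authors' p-value column was not used. The authors' FDR column was made by an unstated method, was read as a score since 713 values are above 1, and was not used. A length in bases per gene is also deposited. Columns named by genotype at 0 h were assigned to the 1 sample of each genotype, and 0 columns were left unmatched.

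Expected counts were rounded and scaled with TMM factors (edgeR 4.0.16 in R 4.3.3; 1.01 for WT, 0.988 for TKO). Intervals are exact conditional binomial (Clopper-Pearson) at 95% on counts of 1 library per genotype, so they cover counting error only. Reads that carry no molecular identifier can repeat a molecule, so the intervals may be too narrow even for that error. The length trend was a lowess fit (span 0.3) over genes with at least 20 counts. The calling rule was tried on simulated counts with counting error only, and the trend fit on a simulated straight-line trend. Neither simulation held spread between cultures, so neither can show that the calls would recur in other cultures. Coordinates and UTRs come from GENCODE M21, annotated on GRCm38, to which mm10 corresponds. Alternatives were library totals, DESeq2 1.42.0 size factors, FPKM with and without 1 added, other count minimums and thresholds, length trend removal and other site definitions. The 10 genes, the lists and the tests were chosen with earlier results of these data known. Named in each list were up to 3 measured genes with the largest absolute log2 ratio and the most abundant (with exceptions not reported here); marker genes, Ch25h and the overlapping genes were named after their values were seen.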

Additional observations from a re-analysis of the deposited data

How the results depend on the processing

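With 1 library per genotype, no library could be left out. No paired analysis was possible because the labels give no replicate numbers. Of the 10 genes, 0 were called in either direction except Abca1, so that 1 was lower with library totals, with the FPKM ratio and at a 1.5-fold threshold. With the length trend removed Abca1 had a log2 ratio of -0.56 and Abcg1 of 0.73. The median of the RXR partner list went from -0.30 to -0.016. That of the other ABCA and ABCG transporters changed sign, from -0.13 to 0.075. Over all genes, 280 were higher and 265 lower; these counts were 154 and 67 with FPKM plus 1, 164 and 95 at a count minimum of 100, 591 and 636 at 1.5-fold and 76 and 26 at 4-fold. The fold thresholds and the count minimum move such counts by construction. So does the 1 added to FPKM, which shrinks the ratios of genes at low levels. For the other settings the cause was not tested. Of the 10 genes depth limits Nr1h3 most, with 135 and 151 counts, and Soat2, at 7 and 20 counts, is the called list gene outside the markers with the fewest.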
